A study of Homo sapiens with 28 samples.

Results

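In F1295A cells, 486 windows of 10 kb had at least 50% of their bases under H3K36me2 peaks while the D1240A, WT and TKO lists each covered less than 50% of the same window. They are 0.175% of the 278087 autosomal windows tested and 23.1% of the 2105 windows that reached the limit in F1295A. The windows were selected on H3K36me2 coverage itself, so their H3K36me2 values describe the selection and are not evidence of a difference. Peaks lying within 1 kb of each other were merged first, and 94 of 2886 blocks of 1 Mb in which all 12 lists covered at least 10% of the bases were left out, which removed 9321 windows, 214 of which met the coverage rule.

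H3K36me2, H3K27me3 and H3K27ac were mapped by ChIPmentation, an immunoprecipitation in which a transposase adds the sequencing adapters on the precipitated chromatin, in a derivative of the human multiple myeloma line KMS-11 that is called TKO and labelled as WHSC1(+/-) with the cell type plasma cell. WHSC1 is an older name of NSD2, and every condition shares this genotype. The conditions were TKO cells expressing the F1295A form of NSD2, TKO cells expressing the D1240A form, TKO cells expressing wild type NSD2 (WT), and TKO cells alone. There were 2 replicates for each condition and mark, but each deposited peak list was called on both together, so there is 1 list per condition and mark, no replicate error and no test. How the NSD2 forms were introduced, at what level they were expressed and whether TKO is 1 clone are not given in the sources used here.

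NSD2 is a histone methyltransferase that dimethylates lysine 36 of histone H3, a mark spread broadly over gene bodies and between genes. H3K36me2 hampers the Polycomb enzymes that place H3K27me3, a mark of silenced genes, so the marks tend to occupy different chromatin. H3K27ac is found at active promoters and enhancers. Because NSD2 is overproduced in a subset of myelomas, its effect on H3K36me2 has been studied in KMS-11 and lines made from it.

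After removal of duplicates by the authors, 69211726 fragments stood behind the H3K36me2 list of F1295A, 64588375 of D1240A, 62550152 of WT and 69008405 of TKO. Duplicates were 65% in F1295A, 73% in D1240A, 77% in WT and 72% in TKO. So F1295A had the most fragments and the lowest duplicate share for this mark. There were 67939521 to 73613753 fragments behind each H3K27ac list and 31097592 to 44812488 behind each H3K27me3 list. For H3K27me3 F1295A had the fewest fragments, with 87% duplicates, against 84% in D1240A, 82% in WT and 82% in TKO. What these differences do to the windows was not tested. H3K27ac peaks lay at an end of 7 of 9 plasma cell markers in each of the 4 lists, with SDC1 and CD38 without one, and at none of 4 myeloid markers. Of the B cell markers, BACH2 and BCL6 had a peak while PAX5, MS4A1 and CD22 had none. Of 4 T cell markers 1 had a peak (CD3E), while CD3D, CD3G and CD8A had none. NSD2 itself is not touched by any of the 486 windows, and none of its gene body lay under an H3K36me2 peak in any list. The input libraries are not analysed here, so more copies of a stretch of DNA and more of a mark on each copy cannot be told apart.

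Promoters inside the windows fell into different chromatin, shown here by 5 sequences of 300 bases. Each runs from 250 bases before a start listed for the gene to 50 bases after it. They are the RefSeq reference of GRCh38.p14, 5′ to 3′ on the strand of the gene, and were picked after their values were seen. Capitals mark each GC box, the letters GGGCGG or its reverse complement CCGCCC, a motif bound by SP1 and related factors, counted without overlap on both strands. In the ERAP1, VSIG8 and CRP promoters an H3K36me2 peak covered more than 50% of the bases in F1295A. The UCK2 and NIBAN1 promoters lay wholly under H3K27ac peaks in every list and had no H3K36me2 peak in any. The 5 do not stand for a clean split of the promoters by mark. Those of CD63 and DNAJC14, not shown, lay wholly under both H3K36me2 and H3K27ac peaks in F1295A.
ERAP1, chr5:96814096-96814395, minus strand: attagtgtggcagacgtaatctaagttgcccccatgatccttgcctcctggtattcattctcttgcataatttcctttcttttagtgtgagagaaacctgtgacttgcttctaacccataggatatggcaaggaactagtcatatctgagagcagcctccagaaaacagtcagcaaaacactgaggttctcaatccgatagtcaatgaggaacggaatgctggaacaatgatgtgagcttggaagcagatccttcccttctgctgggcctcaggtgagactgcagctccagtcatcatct
VSIG8, chr1:159862608-159862907, minus strand: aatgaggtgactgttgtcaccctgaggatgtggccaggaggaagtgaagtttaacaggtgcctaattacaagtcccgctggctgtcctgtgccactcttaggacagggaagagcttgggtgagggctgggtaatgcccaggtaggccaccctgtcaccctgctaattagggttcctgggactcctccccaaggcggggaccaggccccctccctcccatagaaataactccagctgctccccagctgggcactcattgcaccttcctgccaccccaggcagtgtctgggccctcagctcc
CRP, chr1:159714540-159714839, minus strand: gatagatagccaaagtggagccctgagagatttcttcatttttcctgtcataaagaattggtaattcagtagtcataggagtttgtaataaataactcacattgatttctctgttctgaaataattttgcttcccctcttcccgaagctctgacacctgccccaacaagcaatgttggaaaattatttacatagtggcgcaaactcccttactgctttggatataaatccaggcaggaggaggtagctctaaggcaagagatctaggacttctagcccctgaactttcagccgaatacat
UCK2, chr1:165827364-165827663, plus strand: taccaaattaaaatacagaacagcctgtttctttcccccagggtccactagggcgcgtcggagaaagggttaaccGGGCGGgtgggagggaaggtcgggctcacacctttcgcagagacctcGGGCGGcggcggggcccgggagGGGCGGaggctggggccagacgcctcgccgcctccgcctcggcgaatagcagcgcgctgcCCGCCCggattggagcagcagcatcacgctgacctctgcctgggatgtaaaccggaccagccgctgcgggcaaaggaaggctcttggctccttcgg
NIBAN1, chr1:184974459-184974758, minus strand: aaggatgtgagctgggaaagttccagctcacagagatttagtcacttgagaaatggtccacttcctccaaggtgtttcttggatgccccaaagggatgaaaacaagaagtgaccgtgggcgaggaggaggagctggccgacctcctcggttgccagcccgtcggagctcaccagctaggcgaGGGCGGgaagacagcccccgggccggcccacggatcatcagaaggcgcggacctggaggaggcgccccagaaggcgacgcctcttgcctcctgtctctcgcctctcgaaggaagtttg

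ERAP1, which trims peptides for presentation on MHC class I, had 100% of this promoter under an H3K36me2 peak in F1295A and 0% in D1240A, WT and TKO. The ERAP1 start used here lies inside the gene, which spans 96760813 to 96935854 of chromosome 5 on the minus strand. The promoter of VSIG8, an immunoglobulin-domain membrane protein gene, was covered over 81% in F1295A and 0% in each of the other 3 lists. At CRP, the acute phase C-reactive protein gene, the values were 51.7% in F1295A, 2.33% in D1240A, 10.7% in WT and 0% in TKO. None of these 3 promoter sequences holds a GC box and none carried H3K27ac in any list. UCK2, a uridine-cytidine kinase gene, has 4 GC boxes and NIBAN1 has 1. GC boxes did not split the promoters in the windows by mark. The HIKESHI and ALPK1 promoters hold 0 GC boxes and lay wholly under H3K27ac peaks in every list. The GSTM5 promoter holds 2 and had no H3K27ac peak in any list. The SLAMF9 promoter holds 1, with 84.7% under H3K36me2 in F1295A. These were also picked with values known, and the relation was not tested.

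In all, 37 protein-coding promoters of 31 genes overlapped the windows. An H3K36me2 peak touched 12 of them in F1295A, 5 in D1240A, 4 in WT and 3 in TKO. These H3K36me2 counts partly repeat the selection of the windows on that mark. H3K27ac touched 23 promoters in F1295A (18 genes), 24 in D1240A (19 genes), 23 in WT (19 genes) and 25 in TKO (20 genes). The shares over all autosomal promoters are not given here for any mark, so the counts describe these promoters only. H3K27me3 touched 4 in F1295A, 3 in D1240A, 7 in WT and 6 in TKO. A GC box was found in 48.6% of the 37 promoters, against 56.6% of 21156 autosomal protein-coding promoters of the same length. SLAMF9, a SLAM family receptor gene, had a promoter at a start inside the gene. It lay under H3K27me3 in every list (100% in F1295A, 100% in D1240A, 98.3% in WT and 100% in TKO). The H3K36me2 coverage of this promoter was 84.7% in F1295A, 0% in D1240A, 71% in WT and 0% in TKO.

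The selected windows sat near the limit rather than far from it. Median H3K36me2 coverage was 57.5% in F1295A, 23.9% in D1240A, 12.2% in WT and 33.6% in TKO, so most windows also carried H3K36me2 peaks elsewhere. In F1295A the quartiles were 53.8% and 65.2%. Without merging, the medians were 38.6% in F1295A, 18.0% in D1240A, 11.1% in WT and 23.3% in TKO. The windows without any H3K36me2 peak numbered 7 in D1240A, 56 in WT and 6 in TKO.

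The list with the second highest coverage was TKO in 268 windows, D1240A in 119 and WT in 99. In 209 windows that second value lay between 40% and 50%, and in 10 it was under 10%. The margin of F1295A over the next list had a median of 23.6 points and ran between 0.760 and 72.2 points. It was at least 25 points in 217 windows and under 5 points in 25. A window of chromosome 20 (43920001 to 43930000) lay just inside with 50.03% in F1295A and 46.57% in TKO, while one of chromosome 8 (91520001 to 91530000) lay just outside with 49.99% in F1295A and 46.76% in WT.

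The peaks of the windows were of modest height. Where a window held a summit, the highest had a median of 25 fragments in F1295A, 23 in D1240A, 21 in WT and 24 in TKO. The lowest of these highest summits had 17 in F1295A, 15 in D1240A, 15 in WT and 16 in TKO. A highest value out of several peaks tends to exceed a median of single peaks. The comparison with all peaks of a list therefore does not show that peaks in the windows are stronger. The lowest peak of each list has 14, and the median over all peaks is 20 in F1295A, 20 in D1240A, 21 in WT and 20 in TKO. A window held a median of 6 H3K36me2 peaks in F1295A, 4 in D1240A, 2 in WT and 4 in TKO. In the 828 windows at 10 kb on either side that were not themselves selected, mean coverage was 32.5% in F1295A, 22.1% in D1240A, 14.6% in WT and 28.7% in TKO. At 100 kb it was still 23.6% in F1295A, 15.8% in D1240A, 11.9% in WT and 20.4% in TKO over 873 such windows. F1295A was the highest list there and TKO the second highest, in stretches chosen for the F1295A windows they hold.

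**Figure D1:**
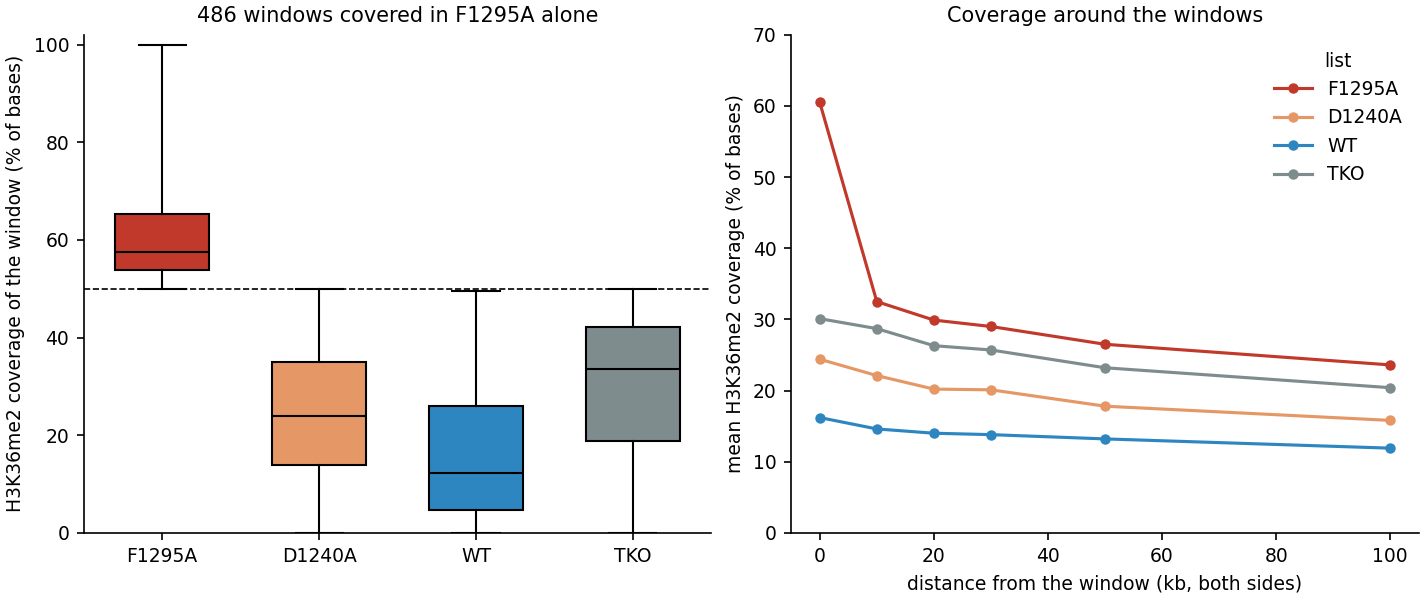
H3K36me2 coverage in percent of bases. Left, the 486 windows in the 4 lists, with boxes for the quartiles, whiskers for the lowest and highest window and a dashed line at the 50% limit that defined them. Right, mean coverage in the windows (distance 0) and in windows not selected by the rule at 10 to 100 kb on both sides, where F1295A lies above TKO, D1240A and WT.

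The same rule applied to the other lists gave 51 windows for D1240A alone, 170 for WT alone and 861 for TKO alone. As a share of the windows each list covered, that is 23.1% for F1295A, 4.02% for D1240A, 19.3% for WT and 34.8% for TKO. Of the 2105 windows covered in F1295A, 479 were otherwise covered in TKO only, 478 in D1240A and TKO only, and 465 in all 4 lists. Windows shared with D1240A only numbered 47 and with WT only 73. The F1295A and TKO H3K36me2 lists both span 94.3 Mb, against 77.1 Mb in D1240A and 73.0 Mb in WT.

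How many windows are found depends on this length and on how peaks are joined. With the 4 lists reduced to the same covered length by dropping their lowest peaks 173 windows were found, 77 of which are among the 486. Without merging of peaks 163 were found, 49 of them among the 486, and with fold enrichment of at least 3 it was 164, with 60 among the 486.

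The 10 windows with the widest margin all lie on chromosomes 1 and 12. The widest margin was at a window of chromosome 1 (208970001 to 208980000) touched by the long noncoding RNA gene LINC01774, with 85.6% in F1295A, 13.4% in D1240A, 7.09% in WT and 10.8% in TKO. It carried neither H3K27ac nor H3K27me3 in F1295A or TKO. Elsewhere on chromosome 1, a window in the long noncoding RNA gene LINC01768 (109890001 to 109900000) was covered over 100% in F1295A, 30.5% in D1240A, 22.0% in WT and 32.6% in TKO, and a second window of that gene was also covered over 100% in F1295A.

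ITGA5 and VSIG8 are protein-coding genes among these 10. ITGA5, the alpha chain of the fibronectin receptor and 1 of the 2 touched genes of a list of 60 cell adhesion molecules, lies on chromosome 12 (54395261 to 54419266), and its window held 72.2% H3K36me2 in F1295A, 5.27% in D1240A, 5.11% in WT and 6.68% in TKO. H3K27me3 covered 82.0% of that same window in F1295A, 60% in D1240A, 66.5% in WT and 35.5% in TKO, so the coverage by both marks was highest in F1295A there. The VSIG8 window of chromosome 1 (159860001 to 159870000) was covered over 100% by H3K36me2 in F1295A, 36.5% in D1240A, 35.8% in WT and 37.5% in TKO. Its H3K27me3 coverage was 83.3% in F1295A, 24.8% in D1240A, 52.7% in WT and 71.1% in TKO. The highest H3K27me3 summit there had 15 fragments in F1295A, 22 in D1240A, 21 in WT and 19 in TKO. In the ITGA5 window it had 19 in F1295A, 19 in D1240A, 21 in WT and 21 in TKO. In these windows F1295A was thus highest by H3K27me3 coverage but not by summit, without scaling for depth. PPFIA4, a liprin gene, NOS1AP and SLAMF9 were also among the 10.

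Chromosome 1 held 167 of the 486 windows, chromosome 8 held 55 and chromosome 12 held 55. Together they carried 57.0% of the windows, against 40.7% of all windows covered in F1295A and 17.8% of all windows tested. For comparison, 39.2% of the windows covered in D1240A alone, 20.6% of those in WT alone and 32.5% of those in TKO alone lay on these 3 chromosomes. Per 1000 tested windows there were 7.39 on chromosome 1, 4.36 on chromosome 12 and 3.87 on chromosome 8, and no other autosome exceeded 2.45 (chromosome 20). Chromosome 6 had none, with 21 of its windows covered in F1295A. On X, which the rule leaves out, 13 windows were covered in F1295A and none met the coverage rule.

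**Figure D2:**
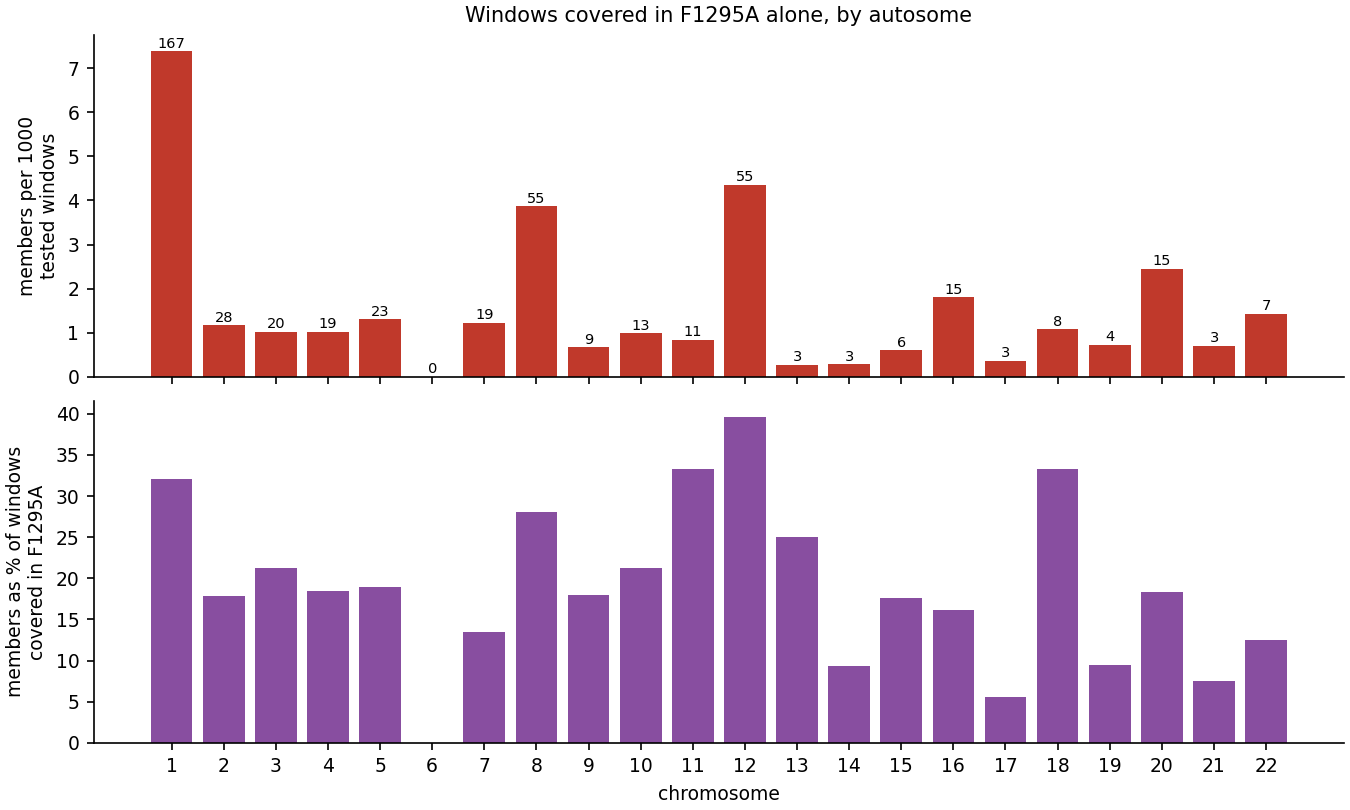
Windows covered in F1295A alone on each autosome, as windows per 1000 tested (above, with the count over each bar) and as a percent of the windows covered in F1295A (below). Chromosomes 1, 8 and 12 have the tallest bars above, while below they reach 32.1%, 28.1% and 39.6% beside 33.3% for chromosomes 11 and 18, where there were 11 and 8 windows.

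Within chromosomes the windows gathered in stretches without joining up. Of the 486, 391 had no selected neighbour and 95 (19.5%) were in runs of adjacent windows, the longest of 4. Of all 2105 windows covered in F1295A 65.3% were in runs, the longest of 31, but the rule takes out windows that another list also covers and so breaks up longer runs. A window covered in F1295A and at least 1 other list lay next to 153 of the 486, and 264 (54.3%) had no neighbour covered in F1295A at all.

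A selected window was present in 207 of 2792 blocks of 1 Mb, in 114 of them exactly 1. The 10 fullest blocks held 132 windows (27.2%), against 14.3% of the windows covered in F1295A and 0.36% of those tested. Their median H3K36me2 coverage was 26.6% in F1295A, 15.2% in D1240A, 15.3% in WT and 16.4% in TKO, and over all tested blocks it was 0.485% in F1295A, 0.383% in D1240A, 0.307% in WT and 0.545% in TKO. The other marks were also above the tested blocks there, with a median H3K27ac coverage of 12% in F1295A, 10.8% in D1240A, 11.7% in WT and 10.4% in TKO, against 1.69% to 1.83% over all tested blocks. Median H3K27me3 coverage in the 10 blocks was 4.07% in F1295A, 6.28% in D1240A, 8.39% in WT and 12.3% in TKO, against 0.190% to 0.275% over all tested blocks. The part of signal shared by all marks in these counts was not tested. Without the 10 fullest blocks 42.9% of the remaining 354 windows lay on chromosomes 1, 8 and 12.

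The fullest block, on chromosome 12 (58000001 to 59000000), held 20 windows, 1 of which touched a protein-coding gene, the uncharacterised LOC105369787. It includes the run of 4 windows with the widest mean margin (58380001 to 58420000), with mean H3K36me2 coverage of 80.0% in F1295A, 28.0% in D1240A, 38.6% in WT and 28.8% in TKO. H3K27me3 in that run averaged 1.44% in F1295A, 10.7% in D1240A, 8.69% in WT and 22.0% in TKO. The next blocks were on chromosome 1, with 16 windows each at 159000001 to 160000000 and at 167000001 to 168000000, 15 at 109000001 to 110000000 and 13 at 184000001 to 185000000. The first of these, like the block on chromosome 12, adjoins a block left out because all 12 lists cover it, and the other 3 lie at least 5000000 bases from one. Of all selected windows 18.7% lay within 1 Mb of such a block, against 17.8% of the windows covered in F1295A. Blocks next to one left out held 18.7% of the selected windows, 17.8% of those covered in F1295A and 2.30% of those tested.

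Protein-coding genes touched 230 windows, or 47.3% (exact binomial 95% interval 42.8% to 51.9%, which covers counting error only and takes neighbouring windows as independent). The share was 45.2% of the windows covered in F1295A and 47.3% of all tested windows, so the selected windows were no more often genic than the rest by this count. Long noncoding RNA genes touched 31.3% of the selected windows, 23.9% of those covered in F1295A and 20.7% of those tested. A protein-coding gene start lay in 6.38% of the selected windows, against 7.08% of those covered in F1295A and 5.50% of those tested. The 168 protein-coding genes touched are 0.848% of 19821, and 131 of them were touched by 1 window. Their median length was 74.7 kb, against 52.2 kb for genes touched by any window covered in F1295A and 24.5 kb for all protein-coding genes, where longer genes have more windows to be hit.

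Of the 168 genes, 114 had their highest gene body coverage in F1295A, and 19 had at least 25 points more there than in each other list. Among the 467 genes touched by any window covered in F1295A these numbers were 195 and 21. The body coverage includes the selected windows, so the counts partly repeat the selection. CSF1, the gene of the macrophage growth factor, lies wholly in the windows (chromosome 1, 109910506 to 109930992). H3K36me2 covered 65.6% of it in F1295A, 9.45% in D1240A, 4.89% in WT and 28.9% in TKO. H3K27ac covered 32.6% of CSF1 in F1295A, 31.4% in D1240A, 35.1% in WT and 17.4% in TKO, with similar values in the lists with an NSD2 form and a lower one in TKO. HIKESHI, which carries HSP70 proteins into the nucleus, had 33.7 of its 43.7 kb in the windows and H3K36me2 coverage of 61.5% in F1295A, 30.7% in D1240A, 15.9% in WT and 36.6% in TKO.

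NOS1AP, which encodes an adaptor of neuronal nitric oxide synthase, had the most bases in the windows, 80 kb in 8 windows (chromosome 1, 162069691 to 162370475). H3K36me2 covered 47.1% of the gene in F1295A, 22.1% in D1240A, 29.3% in WT and 17.2% in TKO. Over the same gene H3K27me3 ran in the other order between F1295A and TKO, with 10.0% in F1295A, 15.9% in D1240A, 20% in WT and 32.6% in TKO. In the window 162170001 to 162180000 H3K27me3 was listed at 0% in F1295A, 12.9% in D1240A, 2.79% in WT and 68.6% in TKO, and in 162180001 to 162190000 at 0% in F1295A, 0% in D1240A, 7.75% in WT and 48.2% in TKO. H3K36me2 in the second of these windows covered 81.7% in F1295A and 19.2% in TKO, with summits of 23 fragments in F1295A, 20 in D1240A, 20 in WT and 19 in TKO.

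**Figure D3:**
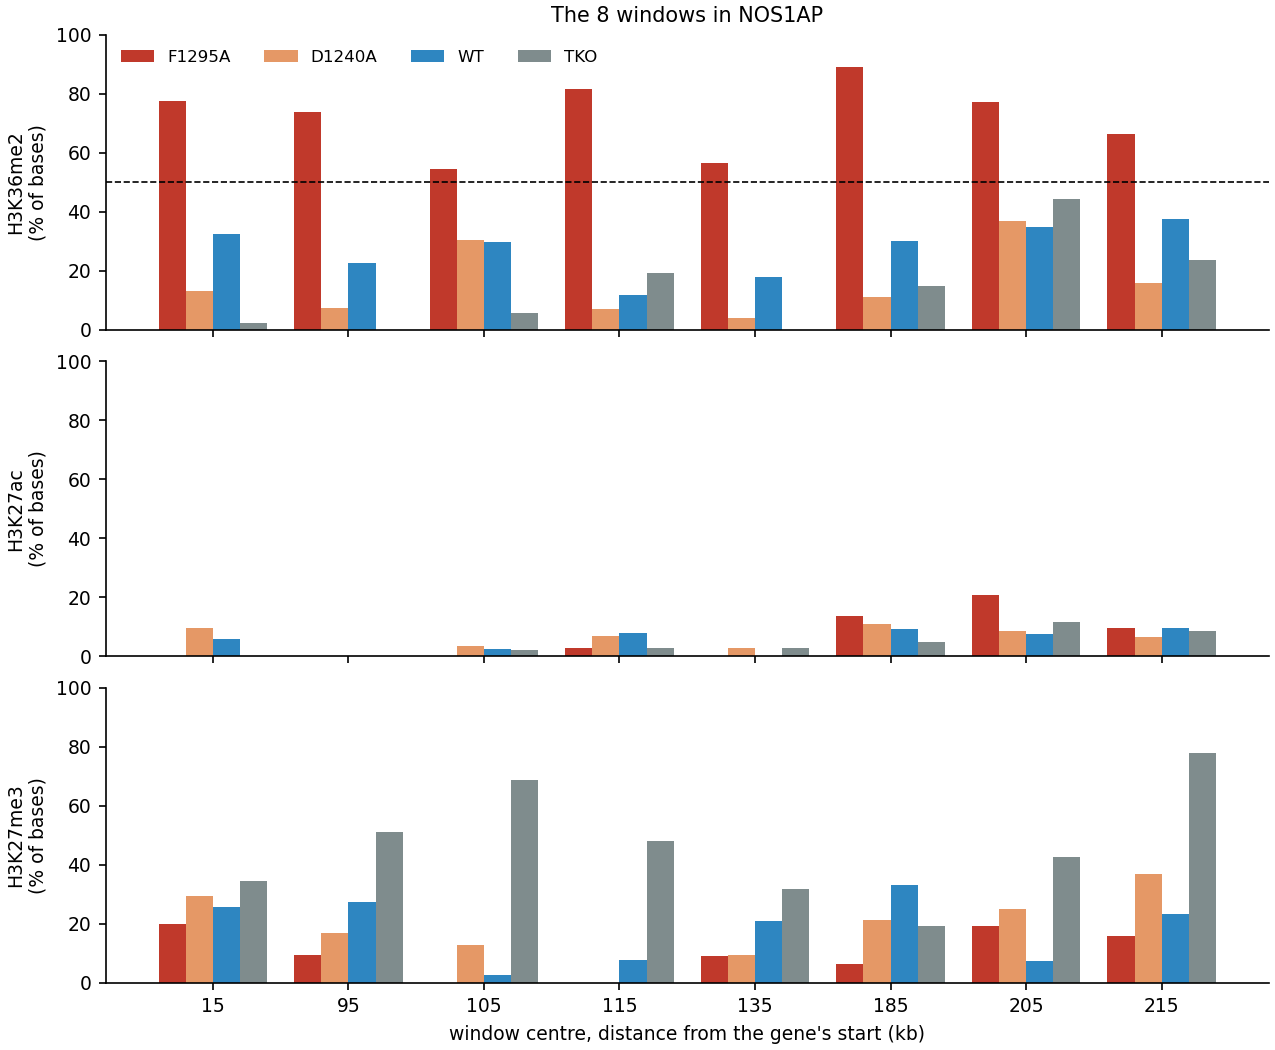
Coverage of the 8 selected windows in NOS1AP by peaks of H3K36me2, H3K27ac and H3K27me3, in percent of bases, against the distance of the window from the gene's start in kb. Bars run F1295A, D1240A, WT and TKO, and a dashed line marks the 50% limit for H3K36me2. H3K27me3 is higher in TKO than in F1295A in each of the 8 windows, and H3K27ac does not exceed 20.8% in any list.

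Transcription factor genes were among the other genes with most bases in the windows. POU2F1, the octamer-binding factor also called OCT1, had 60 kb in the windows and gene body coverage of 47.1% in F1295A, 26.9% in D1240A, 22.5% in WT and 34.5% in TKO. TOX2, an HMG-box gene, was covered over 51.3% in F1295A, 33.9% in D1240A, 4.99% in WT and 51.5% in TKO, so the gene as a whole was covered alike in F1295A and TKO although 3 of its windows passed the rule.

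The pattern of TOX2, with coverage in TKO close to that in F1295A, recurred in other long genes. CPQ, which encodes carboxypeptidase Q, was covered over 42.5% in F1295A, 27.2% in D1240A, 12.1% in WT and 41.5% in TKO. For DCAF6, a substrate receptor gene of a ubiquitin ligase, the values were 41.0% in F1295A, 30.6% in D1240A, 19.1% in WT and 42.3% in TKO. C1orf21 had 52.1% in F1295A, 33.7% in D1240A, 13.9% in WT and 48.9% in TKO. NDUFAF6, an assembly factor gene of respiratory complex I, had 43.5% in F1295A, 38.3% in D1240A, 13.8% in WT and 40.1% in TKO.

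In other genes of the 15 F1295A was also the highest list. ENPP6, a choline phosphodiesterase gene, had 47.7% in F1295A, 23.1% in D1240A, 26.2% in WT and 23.1% in TKO. DDR2, a receptor tyrosine kinase gene that binds collagen, had 28.7% in F1295A, 11.2% in D1240A, 21.4% in WT and 10.7% in TKO. FGGY, a carbohydrate kinase gene, had 26.2% in F1295A, 16.1% in D1240A, 15.1% in WT and 11.7% in TKO. SORT1, the sortilin gene, had 48.2% in F1295A, 24.8% in D1240A, 27.7% in WT and 37.0% in TKO. RABGAP1L, a regulator of RAB GTPases and the longest of the 15 at 836 kb, had 18.5% in F1295A, 13.2% in D1240A, 5.56% in WT and 15.4% in TKO, a smaller gap to TKO than in the other genes of this paragraph.

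**Figure D4:**
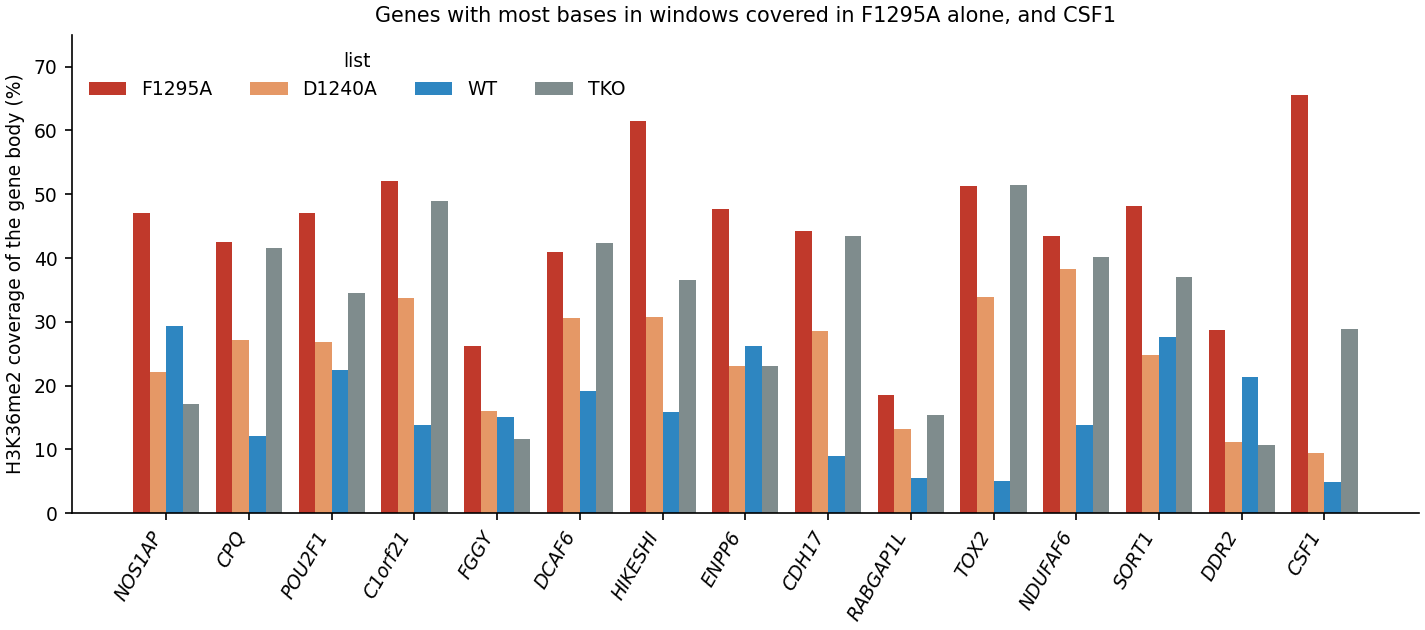
Percent of each gene body under H3K36me2 peaks in F1295A, D1240A, WT and TKO for 14 of the 15 protein-coding genes with most bases in the selected windows, in that order, and for CSF1, which lies wholly in them. F1295A is the tallest bar in all but DCAF6 (41.0% in F1295A, 42.3% in TKO) and TOX2 (51.3% in F1295A, 51.5% in TKO).

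Of the 245 genes in the lists drawn up for this cell type and study 3 were touched (1.22%, against 0.848% of all protein-coding genes). Of 60 cell adhesion molecules, the group named in the series title, 2 were touched (3.33%), CDH17 and ITGA5, and 3 by any window covered in F1295A. The integrin gene ITGA7, not on the list and named after its values were seen, was also touched, with 6.40 kb in 1 window. CDH17, a cadherin gene of gut epithelium on chromosome 8, had 30 kb in the windows, and its body was covered over 44.3% in F1295A, 28.5% in D1240A, 9.05% in WT and 43.4% in TKO. Of 20 T cell and NK cell genes CD247, the zeta chain of the T cell receptor complex, was touched, with 55.5% of its body covered in F1295A, 33.4% in D1240A, 23.7% in WT and 40.1% in TKO. None of 27 plasma cell genes, 20 B cell genes, 15 myeloid genes, 40 extracellular matrix and focal adhesion genes, 16 genes tied to t(4;14) myeloma, 27 modifying enzymes of these histone residues or 24 housekeeping genes was touched.

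H3K27ac peaks were common in the selected windows, in similar shares of the 4 lists as deposited. A peak was present in 79.6% of windows in F1295A, 78.2% in D1240A, 79.8% in WT and 77.8% in TKO, and in all 4 lists in 306 windows (63.0%). Of all windows covered in F1295A the shares were 92.7% in F1295A, 92.1% in D1240A, 92.4% in WT and 91.9% in TKO, and of all tested windows 13.9% in F1295A, 13.9% in D1240A, 14% in WT and 13.7% in TKO. With the H3K27ac lists reduced to the same covered length the shares were 54.9% in F1295A, 61.9% in D1240A, 79.8% in WT and 55.6% in TKO, so WT, the shortest list, was then the highest. Mean coverage by the full lists in the selected windows was 17.7% in F1295A, 17% in D1240A, 16.2% in WT and 16.2% in TKO.

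Changes of 25 points or more in H3K27ac were rare. H3K27ac was higher by that much in F1295A than in TKO in 5 windows (1.03%, against 1.47% of the windows covered in F1295A), than in WT in 1 (0.206%, against 2.04%) and than in D1240A in 0 (against 1.33%). It was lower in F1295A in 0 windows in each contrast, where the share of the windows covered in F1295A was 0.190% against TKO, 0.0475% against WT and 0.0475% against D1240A. A window of CSF1 (109910001 to 109920000) was among the 5, with 44.1% in F1295A, 43.5% in D1240A, 44.7% in WT and 17% in TKO. Another of the 5, also picked with its values known, lies at the lower-coordinate end of C1orf21 (184380001 to 184390000). It had 71.8% in F1295A, 48.9% in D1240A, 47.8% in WT and 42.1% in TKO. These are bases under peaks, and the summits differed less between F1295A and TKO. The highest summit had 180 fragments in F1295A and 187 in TKO in the C1orf21 window. In the CSF1 window it had 48 in F1295A and 47 in TKO.

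The windows with the 5 highest H3K27ac summits in F1295A touched 5 genes and had H3K27ac peaks in every condition. They were ranked by summit and not by coverage. The highest summit was in CNDP1, the serum carnosinase gene on chromosome 18, with 531 fragments in F1295A (exact Poisson 95% interval 487 to 578), 652 in D1240A (603 to 704), 613 in WT (565 to 664) and 558 in TKO (513 to 606), without scaling for depth. The window at CTIF, a translation initiation factor gene, had 359 fragments in F1295A, 332 in D1240A, 354 in WT and 350 in TKO. The other windows were at NIBAN1, UCK2 and PPP1R16B, a regulatory subunit gene of protein phosphatase 1. They had 295 to 333 in F1295A, 339 to 382 in D1240A, 331 to 410 in WT and 316 to 383 in TKO. The windows at CTIF, NIBAN1 and UCK2 extend past the gene. In the PPP1R16B window H3K36me2 coverage was 50.9% in F1295A, 26.9% in D1240A, 8.65% in WT and 34.8% in TKO.

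H3K27me3 peaks were present in 38.7% of the selected windows in F1295A, 47.9% in D1240A, 49.6% in WT and 59.9% in TKO. All windows covered in F1295A showed the same order, with 45.3% in F1295A, 50.5% in D1240A, 54.1% in WT and 60.6% in TKO. So did all tested windows, with 6.36% in F1295A, 7.1% in D1240A, 8.09% in WT and 9.78% in TKO. The H3K27me3 lists rest on 31097592 fragments in F1295A, 33219802 in D1240A, 44812488 in WT and 41788534 in TKO, and span 64.0 Mb in F1295A, 63.7 Mb in D1240A, 70.2 Mb in WT and 73.7 Mb in TKO. With the H3K27me3 lists reduced to the same covered length the shares were 37.9% in F1295A, 47.9% in D1240A, 35.0% in WT and 41.6% in TKO. WT and not F1295A was then lowest, and D1240A, the shortest list and so left whole, was highest. The peaks with the fewest fragments were dropped, and more was dropped from WT and TKO than from F1295A. The order at equal length therefore also depends on how much of each list was dropped.

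**Figure D5:**
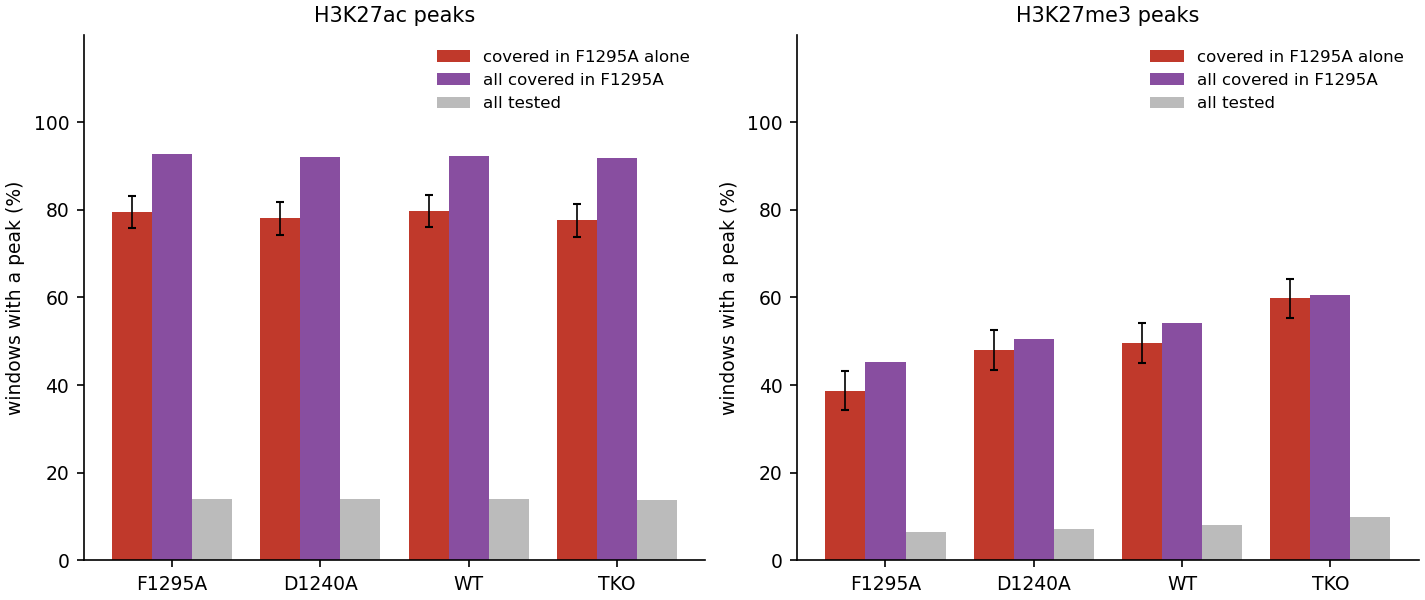
Percent of windows with a peak of H3K27ac (left) and H3K27me3 (right) in F1295A, D1240A, WT and TKO, for the 486 windows covered in F1295A alone, all 2105 windows covered in F1295A and all tested windows. Error bars are exact binomial 95% intervals, for counting error only. The left bars are similar across the lists as deposited, and the right bars are lowest in F1295A and highest in TKO in each set of windows.

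H3K27me3 coverage of the selected windows averaged 7.36% in F1295A, 8.43% in D1240A, 11.1% in WT and 14.5% in TKO. It was at least 25 points lower in F1295A than in TKO in 52 windows (10.7%, against 8.17% of the windows covered in F1295A), than in WT in 22 (4.53%, against 4.09%) and than in D1240A in 6 (1.23%, against 2.14%). It was at least 25 points higher in F1295A than in TKO in 1 window (0.206%, against 0.190%), than in WT in 1 (0.206%, against 0.428%) and than in D1240A in 5 (1.03%, against 1.38%). The differences between these shares were not tested. At equal covered length of the H3K27me3 lists 18 of 486 were lower in F1295A than in TKO, and without the 10 fullest blocks 11 of 354 were lower. Of the 52, 36 lie within 1 Mb of a block that all lists cover, where 91 of the 486 windows lie.

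In those 91 windows mean H3K27me3 coverage was 19.1% in F1295A, 21.1% in D1240A, 30.1% in WT and 39.6% in TKO. In the 395 windows farther away it was 4.66% in F1295A, 5.52% in D1240A, 6.77% in WT and 8.73% in TKO. H3K27ac averaged 12.7% in F1295A, 9.59% in D1240A, 10.8% in WT and 8.79% in TKO in the 91, and 18.9% in F1295A, 18.7% in D1240A, 17.5% in WT and 17.9% in TKO in the others. Windows that touch a protein-coding gene differed little from the rest in H3K27me3, with 8.03% in F1295A, 8.35% in D1240A, 11.5% in WT and 14.2% in TKO, against 6.76% in F1295A, 8.51% in D1240A, 10.8% in WT and 14.8% in TKO. H3K27ac in windows touching a gene averaged 20.4% in F1295A, 19.6% in D1240A, 18.9% in WT and 18.6% in TKO, against 15.4% in F1295A, 14.6% in D1240A, 13.8% in WT and 13.9% in TKO in the rest.

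The windows with the most H3K27me3 include a stretch of chromosome 1 with SLAM family genes. In the run 159820001 to 159850000, which holds SLAMF8, H3K27me3 covered a mean of 62.6% in F1295A, 58.1% in D1240A, 87.0% in WT and 95.4% in TKO, while H3K36me2 covered 71.3% in F1295A, 26.2% in D1240A, 20% in WT and 19.5% in TKO. The SLAMF9 window (159950001 to 159960000) held 80.9% H3K27me3 in F1295A, 89.6% in D1240A, 100% in WT and 89.9% in TKO. A window on chromosome 4 (9220001 to 9230000) with USP17L12 and USP17L13, genes of a multi-copy deubiquitinase family whose reads cannot be placed with certainty, held 72.4% in F1295A, 72.5% in D1240A, 100% in WT and 70.8% in TKO. At DGKA and PMEL on chromosome 12 (55950001 to 55960000), named for the largest difference from TKO after values were seen, H3K27me3 was 30.7% in F1295A, 9.82% in D1240A, 74.3% in WT and 100% in TKO.

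Where the marks met within a window, H3K27me3 bases lay under H3K36me2 peaks more often than all bases did. In F1295A 66.0% of the H3K27me3 bases of the selected windows lay under H3K36me2 peaks, unmerged, against 39.4% of all their bases. These shares were 41.6% against 18.1% in D1240A, 42.8% against 12.8% in WT and 36.5% against 22.9% in TKO. The same held over all windows covered in F1295A, with 78.9% against 51.0% in F1295A, 74.2% against 37.6% in D1240A, 77.0% against 26.6% in WT and 70.5% against 47.9% in TKO. For H3K27ac in the selected windows the shares were 51.1% against 39.4% in F1295A, 30.2% against 18.1% in D1240A, 15.1% against 12.8% in WT and 44.9% against 22.9% in TKO. Both other marks had a peak in 168 windows in F1295A, 181 in D1240A, 198 in WT and 217 in TKO, and neither had one in 79 in F1295A, 54 in D1240A, 55 in WT and 34 in TKO. Whether regions with high fragment counts in every list account for this overlap was not tested.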

How the data were processed

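The authors deposited 12 MACS2 peak lists, 1 for each of 4 conditions and 3 marks. Per the file headers each was called on both replicates together, from paired-end fragments, keeping peaks with q-values up to 0.05, without local background or control. The submitters' processing notes name GRCh38, the trimming tool Trimmomatic 0.36, the quality tool FastQC 0.11.4, the aligner Bowtie2 2.4.5 and the peak caller MACS2 2.2.7.1. The deposited pileup is a signal, the number of fragments over the summit, not scaled for depth, per the file headers. The deposited fold enrichment is a ratio to the authors' genome-wide background, and the deposited −log10 q-value was computed against it.

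Coverage was computed as the percent of bases of a 10 kb window under peaks, merged within 1 kb for H3K36me2 and H3K27me3. Chromosome ends were set by the last peak of any list. Genes came from RefSeq for GRCh38.p14 and touched a window with at least 1 base. A change meant 25 points of a window. With 1 list per condition no test was run. The selected windows and the gene lists were chosen with earlier results of these data known. Text names the 10 widest margins, the longest runs, the fullest blocks and the 15 genes with most bases in windows. It also names the genes of the named windows, list members that were touched and windows with the highest H3K27ac summits or the most H3K27me3. It says where others were picked. Single values of some genes are not reported here. Poisson and binomial intervals are exact and cover counting error only. In simulated lists, copies of the WT list with 200 planted windows, 100 of 100 windows planted at 70% and 0 of 100 at 40% were found, with 0 others among 278087. The lists were otherwise identical, so this outcome was set by the construction. It checks only that the rule was applied as written, and gives no rate of false calls. The steps used SciPy 1.17.1, pandas 2.3.3 and numpy 2.4.6 under Python 3.11.15, and figures matplotlib 3.10.9.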

Additional observations from a re-analysis of the deposited data

How the results depend on the processing

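No paired analysis was possible because each deposited list was called on both replicates together and no result comes from a test. The number of windows, 486 as reported, was 163 without merging, 1708 with peaks merged within 3 kb, 130 with −log10 q of at least 5, 173 at equal covered length of the H3K36me2 lists, 7 at 75% in F1295A and less than 25% elsewhere, 1428 with 5 kb windows and 174 with 20 kb windows. Of 13 settings 4 gave a number within 1.5 times of 486. Of the settings chosen after seeing the data, 50% in F1295A and less than 25% elsewhere gave 95 windows, fold enrichment of at least 3 gave 164, and leaving out the 10 fullest blocks gave 354. Equal covered length of the H3K27ac or H3K27me3 lists, and the results on lower H3K27me3 and on chromosomes, were also chosen then.

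The share touched by protein-coding genes, 47.3%, stayed within its interval in 10 of 13 settings and was 55.6% with merging within 3 kb, 52.0% at equal H3K36me2 length and 57.1% at the 75% limit. The share with H3K27ac in F1295A, 79.6%, was 94.5% without merging, 55.2% with merging within 3 kb, 99.2% with the q limit, 93.6% at equal H3K36me2 length, 72.9% with a limit of 40%, 71.4% at the 75% limit, 60.4% and 92.5% with windows of 5 and 20 kb, 85.3% with the shared blocks kept, 53.1% where a peak had to cover 10% of a window, 65.3% at less than 25% elsewhere, 95.7% with the fold limit and 54.9% at equal H3K27ac length, where WT kept 79.8%.

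The share with H3K27me3 in F1295A, 38.7%, was in the same order of settings 53.4%, 23.3%, 50.8%, 43.4%, 31.0%, 57.1%, 22.7%, 55.7%, 54.3%, 20% and, with the fold limit, 52.4%, and it was 30.8% without the fullest blocks. The windows with H3K27me3 lower by 25 points in F1295A than in TKO, 52, numbered 23 without merging, 14 with the q limit, 17 at equal H3K36me2 length, 2 at the 75% limit, 116 and 22 with 5 and 20 kb windows, 126 with shared blocks kept, 8 at less than 25% elsewhere, 20 with the fold limit, 11 without the fullest blocks and 18 at equal H3K27me3 length.

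The share in runs, 19.5%, was 10% with the q limit, 8.09% at equal H3K36me2 length, 0% at the 75% limit, 26.9% with shared blocks kept, 6.32% at less than 25% elsewhere, 15.2% with the fold limit and 9.89% without the fullest blocks. The share on chromosomes 1, 8 and 12, 57.0%, was 39.6% with merging within 3 kb, 48.5% with the q limit, 52.0% at equal H3K36me2 length, 100% at the 75% limit, 48.9% and 66.7% with 5 and 20 kb windows, 66.9% with shared blocks kept, 73.7% at less than 25% elsewhere, 50.6% with the fold limit and 42.9% without the fullest blocks. The causes were not tested. The lowest peaks of each H3K36me2 list have 14 fragments, and signal that was not called as a peak enters no coverage here. A detection limit for a difference in coverage was not computed.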
